A study of Mus musculus with 3 samples.

Results

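The genes described here encode remodellers of nucleosomes and enzymes that write or erase marks on histones and DNA. They were chosen by gene symbol as the histone deacetylases (Hdac), histone demethylases (Kdm), histone methyltransferases and their relatives (Kmt, Setd and Ezh), chromodomain helicases (Chd), SWI/SNF and related subunits (Smarc and Arid), DNA methyltransferases (Dnmt) and 5-methylcytosine oxidases (Tet), and the Y-linked gene Kdm5d was left out. The rule found 89 genes among 32285 features. Their RNA was measured in horizontal cells, the inhibitory interneurons of the outer retina, sorted by fluorescence from retinas of Cx57icre;Ai14 mice. In these mice a Cre recombinase driven by the connexin 57 gene, which is active in horizontal cells, switches on a red fluorescent protein, and cells of all 3 libraries carried both alleles. Postnatal days 6 (P6), 8 (P8) and 11 (P11) gave 1 droplet library each, so the age of the mice cannot be told apart from the library, no test between ages could be made, and every interval covers counting error only. The labels give neither the number of animals nor their sex.

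Chromatin remodellers slide or evict nucleosomes with the energy of ATP, and most work as large complexes in which one of several related proteins can fill a given seat. In developing neurons of rodents the BAF complex (the mammalian SWI/SNF complex) is known to exchange subunits as progenitors become neurons, and the Polycomb enzyme Ezh2 is known to be replaced in part by its relative Ezh1 as cells stop dividing. The comparisons below ask which of these genes, and which seats, differed between the ages.

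Horizontal cells were taken as barcodes with at least 1000 detected genes, at most 10% mitochondrial UMIs (unique molecular identifiers, which count captured transcripts) and a UMI of at least 2 of the transcription factor genes Lhx1, Onecut1 and Onecut2. This gave 7145 cells on P6, 3153 on P8 and 4757 on P11, or 94.4%, 96.1% and 96.2% of the barcodes past the first pair of limits. Their summed counts were 82305608, 62520239 and 103160766 UMIs, with a median per cell of 12161, 20671 and 22106 UMIs. The 9 horizontal cell markers, which include the 3 genes of the rule, summed to 6474, 10014 and 15944 counts per 1000000 UMIs (CPM). Summed rod markers stood at 8.08, 7.50 and 6.398 CPM, cone markers under 1 CPM at each age and markers of cycling cells at 1.88, 2.495 and 2.79 CPM. Microglial markers were at 11.5, 5.18 and 4.28 CPM. Genes that respond to dissociation summed to 54.8, 75.7 and 69.7 CPM, and the median cell had 3.13%, 3.32% and 4.56% mitochondrial UMIs. The bipolar list (109.7, 47.3 and 50.4 CPM) was mostly Prkca, the Müller glia list (205.3, 199.6 and 295.8 CPM) mostly Glul, the amacrine list (7049, 9557 and 4719 CPM) mostly Npy and the ganglion cell list (784, 924 and 567 CPM) mostly Sncg, and the part of those cells in any result was not tested. Libraries shared 8 to 15 barcode sequences per pair, of which 4 to 8 belonged to horizontal cells in both.

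Of the 89 genes, 79 were measured, meaning a mean over the 3 ages of at least 5 CPM. The other 10 were Dnmt3c, Dnmt3bos, Arid3c, Kdm6bos, Dnmt3aos, Dnmt3b, Dnmt3l, Arid5a, Kdm4d and Kdm1b. Kdm1b, a histone demethylase, was the highest of these with a mean of 3.42 CPM. Dnmt3b, one of the enzymes that place new DNA methylation, stood at 0.571, 0.240 and 0.436 CPM on P6, P8 and P11. Dnmt3c had 0 UMIs in every library, and a limit of 3 counts for a count of 0 is 0.0364 CPM on P6, 0.0480 on P8 and 0.0291 on P11.

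A gene was called higher or lower when the ages lay at least 1.5-fold apart. On P11, 5 of the 79 genes were higher than on P6, namely Smarca2, Setd7, Smarca4, Smarcd2 and Setd4, and 7 were lower, namely Ezh2, Smarca1, Kdm2b, Chd3, Chd7, Arid3b and Setd5. Over all 10051 measured features 7.77% were higher and 13.6% lower by the same rule, so both shares of these genes (6.33% and 8.86%) lay below the background. The median log2 ratio was -0.28 for the chromatin genes and -0.08 for all features, and 63 of the 79 genes (79.7%) lay below a ratio of 1, as did 58.4% of all features. TMM scaling, edgeR's trimmed mean of M-values, rests on a mean log ratio taken without the most extreme genes. It moved the median of all features to 0.12 and that of the chromatin genes to -0.08. It gave 7 higher and 3 lower chromatin genes, where 14.1% and 8.36% of all features were. Of the features called either way, 62.9% were higher with it, against 36.4% without.

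**Figure D1:**
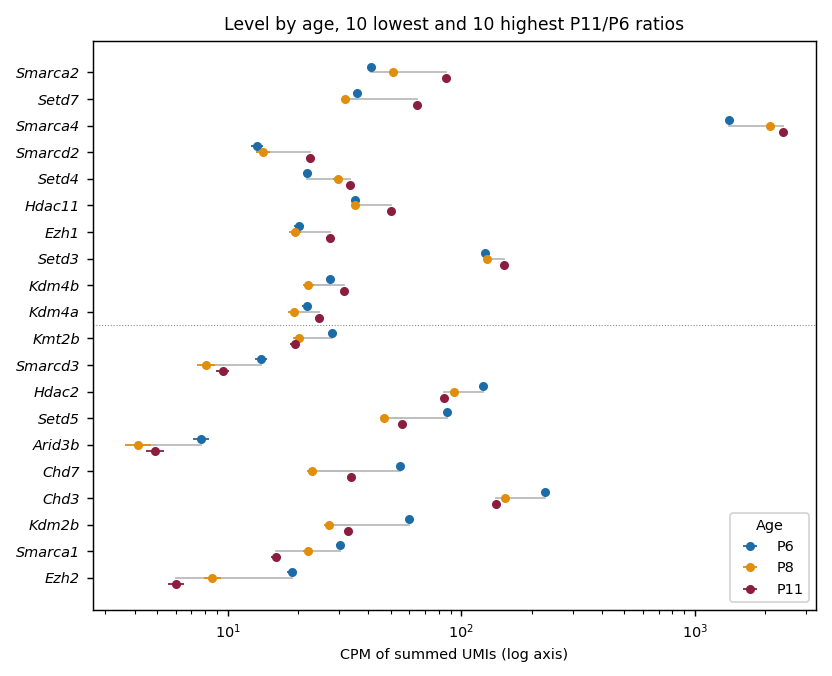
Level of the 10 genes with the highest and the 10 with the lowest P11 to P6 ratios, in CPM of the summed UMIs on a log axis, with exact Poisson 95% intervals and 1 library per age. Smarca4 lies far to the right of the others, from 1395 CPM on P6 to 2388 on P11, and Ezh2 at the bottom has its points in the order P11, P8, P6 from left to right.

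The Polycomb repressive complex carried the largest change of the set. Ezh2 and Ezh1 are the alternative catalytic subunits that methylate histone H3 to silence genes. Ezh2 (chr6:47530139-47595341, minus strand, mm10) stood at 18.9 CPM on P6 (95% interval 18.0 to 19.9), 8.61 on P8 (7.89 to 9.36) and 6.01 on P11 (5.55 to 6.502). The 3 intervals did not overlap, and the P11 level was 0.318 of that on P6 (0.289 to 0.349), the lowest ratio of the 79 genes. Among barcodes past the gene and mitochondrial limits that failed the marker rule, Ezh2 stood at 107.9, 57.6 and 43.4 CPM, on 127, 27 and 36 UMIs. The horizontal cells thus had 0.175, 0.149 and 0.138 of that level, the lowest such ratio of the 79 genes in each library. The part of other cells in the Ezh2 of the horizontal cell sums was not tested. Ezh1 (chr11:101191115-101226463, minus strand) stood at 20.3 CPM on P6 (19.3 to 21.3), 19.5 on P8 (18.4 to 20.6) and 27.4 on P11 (26.4 to 28.5). Its P6 and P8 intervals overlapped, and P11 was 1.35-fold higher than P6 (1.27 to 1.44), which is under the 1.5-fold limit in CPM and past it under TMM scaling. Ezh1 thus made up 51.7% of the UMIs of the pair on P6 (49.996 to 53.5), 69.3% on P8 (67.1 to 71.5) and 82.0% on P11 (80.7 to 83.3). This gain of 30.3 percentage points was the largest of the 20 pairs compared here, and it ranged from 27.5 to 31.5 points over the alternative cell filters and weightings tried. Ezh2 had the same order in cells with Y-linked UMIs and no Xist UMI, at 17.6, 8.74 and 5.75 CPM.

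Ezh2 had the lowest and Smarca2 the highest P11 to P6 ratio of the measured chromatin genes. The promoters of Ezh2 and Ezh1, and of the ATPase pair described next, are shown here. They run from 250 bases before to 30 bases after RefSeq's start of the gene in the build GRCm38.p6, are read 5′ to 3′ on the gene's strand, and were given for 67 of the 89 genes. RefSeq's start is the same as the GENCODE start behind the gene positions printed here for Ezh1 and Smarca4, and lies 311 bases inside the GENCODE gene for Ezh2 and 110 bases inside for Smarca2. Capitals mark matches to 3 motifs searched on both strands, namely TTTNNCGC (the E2F core), ATTGAT (the Onecut core) and TAATTA (the LIM homeodomain core), and no match overlapped another.

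Ezh2 (chr6:47595001-47595280, minus strand): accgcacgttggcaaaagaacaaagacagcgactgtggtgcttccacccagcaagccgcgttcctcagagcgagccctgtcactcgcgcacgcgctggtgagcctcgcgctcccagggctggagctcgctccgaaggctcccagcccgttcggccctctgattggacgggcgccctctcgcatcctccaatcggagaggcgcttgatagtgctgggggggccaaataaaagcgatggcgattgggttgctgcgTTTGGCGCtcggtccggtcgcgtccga

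Ezh1 (chr11:101226434-101226713, minus strand): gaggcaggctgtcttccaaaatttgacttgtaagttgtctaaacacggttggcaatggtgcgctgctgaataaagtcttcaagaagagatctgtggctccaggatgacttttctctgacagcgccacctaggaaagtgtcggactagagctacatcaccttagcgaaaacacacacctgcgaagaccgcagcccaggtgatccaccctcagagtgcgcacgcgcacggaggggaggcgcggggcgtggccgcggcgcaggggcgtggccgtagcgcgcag

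Smarca2 (chr19:26604910-26605189, plus strand): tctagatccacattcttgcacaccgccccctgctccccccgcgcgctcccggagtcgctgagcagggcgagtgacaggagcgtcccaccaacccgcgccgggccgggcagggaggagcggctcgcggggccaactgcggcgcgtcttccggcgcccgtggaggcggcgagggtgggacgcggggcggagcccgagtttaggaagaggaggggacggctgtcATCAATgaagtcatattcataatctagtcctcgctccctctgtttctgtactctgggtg

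Smarca4 (chr9:21615919-21616198, plus strand): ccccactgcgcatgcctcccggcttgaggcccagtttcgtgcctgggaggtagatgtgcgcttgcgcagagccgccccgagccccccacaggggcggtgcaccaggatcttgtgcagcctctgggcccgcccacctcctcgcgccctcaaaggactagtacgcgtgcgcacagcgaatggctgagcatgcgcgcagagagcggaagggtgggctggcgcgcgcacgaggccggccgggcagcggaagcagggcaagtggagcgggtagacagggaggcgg

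The Ezh2 window held 1 E2F core, written TTTGGCGC, that begins at base 4 counted from the RefSeq start, and E2F factors are known to drive genes of the cell cycle. Of 32851 RefSeq promoters cut to the same length, 4.84% held this motif. The motif itself holds a CpG, and its rate among promoters as rich in CpG as this window was not counted. The Smarca2 window held 1 Onecut core on the reverse strand, read here as ATCAAT, that begins 29 bases before the RefSeq start, and 7.21% of all promoters held it. The Ezh1 and Smarca4 windows held none of the 3 motifs, and TAATTA, present in 5.09% of all promoters, was in none of the 4. All 4 windows were rich in CpG, with 30, 21, 29 and 27 CpG dinucleotides in the order printed, against a median of 6 over all promoters. A match describes letters in the window and not binding.

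Smarca4, which encodes the BAF ATPase BRG1, dominated the RNA of the set. Smarca4 (chr9:21616169-21704230, plus strand) stood at 1395 CPM on P6 (1387 to 1403), 2100 on P8 (2089 to 2111) and 2388 on P11 (2379 to 2398). It climbed with age, with P11 at 1.71-fold of P6 (1.70 to 1.72) and P8 at 1.51-fold. P8 lay just past the limit over P6, and that call was absent when cells needed 2000 detected genes, when cells were thinned to 3000 UMIs, and in cells with Y-linked UMIs and no Xist UMI, where it was 1.45-fold. Smarca4 supplied 20.4% of all UMIs of the 89 genes on P6, 34.6% on P8 and 34.2% on P11. Per kilobase of exon it reached 215, 324 and 369 CPM, while Chd4, the next of the set, had 42.3, 36.5 and 39.6 and the median gene 4.99, 3.61 and 4.77. UMIs of 3' chemistry are counted near one end of a transcript, so this scale can understate genes with long exons.

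Most horizontal cells held Smarca4 UMIs. The median horizontal cell held 16 Smarca4 UMIs on P6, 43 on P8 and 53 on P11, and 138 cells on P6 (1.93%), 17 on P8 (0.539%) and 20 on P11 (0.420%) held none. Free RNA in the droplets was not measured, so these numbers do not show how many cells express the gene. Among barcodes past the gene and mitochondrial limits that failed the marker rule, Smarca4 stood at 422, 405 and 362 CPM. The horizontal cells thus had 3.30, 5.18 and 6.60 times the level of those barcodes, the highest such ratio of the 79 genes in each library. The next was Setd3 on P6 (1.83) and P8 (2.42) and Setd6 on P11 (1.89). Setd6 had only 4 UMIs in the other barcodes on P11, at 4.82 CPM (1.31 to 12.3), and Setd3 had a ratio of 1.76 on P11. The median gene had a ratio of 0.723, 0.739 and 0.735. Those other barcodes were few (427, 129 and 186) and shallow (medians of 2322, 2924 and 2994.5 UMIs), and they cannot be told apart from horizontal cells in which the rule's genes went undetected. A small RNA gene, Gm27373 (chr9:21677913-21678096), is annotated on the same strand inside Smarca4, and the counts hold no separate value for it.

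Smarca2, which encodes the alternative ATPase BRM, was the gene with the highest P11 to P6 ratio of the set. Smarca2 (chr19:26605050-26778322, plus strand) stood at 41.3 CPM on P6 (39.9 to 42.7), 50.9 on P8 (49.2 to 52.7) and 86.0 on P11 (84.2 to 87.8). The intervals did not overlap and the P11 level was 2.08-fold that on P6 (2.003 to 2.17). Both ATPase genes were higher on P11, and the pair kept its order. Smarca2 took 2.87% of the UMIs of the pair on P6, 2.37% on P8 and 3.48% on P11.

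Of the remaining Smarc subunits of BAF, Smarcd2 alone passed 1.5-fold between P11 and P6, where 7.77% of features were higher and 13.6% lower. Smarcd2, one of 3 alternative BAF60 subunits, stood at 13.4, 14.2 and 22.5 CPM on P6, P8 and P11, with P11 1.68-fold higher than P6 (1.56 to 1.804). Its relatives Smarcd1 (96.0, 97.8 and 71.3 CPM) and Smarcd3 (13.9, 8.06 and 9.51 CPM) were lower on P11, at ratios of 0.743 and 0.685, without passing 1.5-fold. Smarcd3 did pass it as a mean over cells, where 14.1% of features were lower. Smarcb1, a core subunit, was nearly level at 105.5, 109.3 and 104.7 CPM, and Smarce1 at 90.1, 98.7 and 85.8 CPM. The scaffold subunits Smarcc1 and Smarcc2 had P11 to P6 ratios of 0.767 and 0.729. The large DNA-binding subunits of BAF, Arid1a and Arid1b, had ratios of 0.857 and 0.738, and Arid2 of the related PBAF complex 0.892. Arid3b, a DNA-binding protein of another group, was the 1 of 8 measured Arid genes called, with 7.68, 4.14 and 4.89 CPM and a ratio of 0.636 (0.565 to 0.716). That call was absent under either scaling, at a limit of 5% mitochondrial UMIs, at a minimum of 20 CPM and in cells with Y-linked UMIs and no Xist UMI.

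Larger differences were found in a seat of the BAF complex that genes outside the symbol rule fill. Dpf1 and Dpf3 encode BAF45 subunits linked to neurons, and Phf10 the BAF45 subunit linked to progenitors. Dpf1 stood at 18.9 CPM on P6, 6.65 on P8 and 4.69 on P11, and Dpf3 at 246.6, 74.9 and 95.6 CPM, while Phf10 held level at 30.03, 29.8 and 28.2 CPM. The share of Dpf1 with Phf10 was 38.7% on P6 (37.2 to 40.2), 18.3% on P8 (16.7 to 19.9) and 14.3% on P11 (13.1 to 15.5). That of Dpf3 with Phf10 was 89.1%, 71.5% and 77.2%, so Dpf3 remained the larger part of that pair at each age. Dpf2, also a BAF45 gene, is in neither pair and stood at 26.8, 27.5 and 36.8 CPM, so these shares do not cover the whole seat. Dpf3 spans 274 kb, against 14.3 kb for Dpf1 and 16.3 kb for Phf10, and the part of span in these shares was not tested. Actl6b, the BAF53 subunit of neurons, made up 66.5%, 60.2% and 58.7% of the UMIs it shared with Actl6a, its counterpart in progenitors. Ss18l1, known as CREST and also linked to neurons, held 22.7%, 23.1% and 22.7% against Ss18. Of 17 measured BAF partners, 1 was higher on P11 than on P6 (Bcl7b, at 35.3, 55.0 and 60.2 CPM) and 4 were lower (Dpf1, Dpf3, Bcl7c and Bcl11a), with a median log2 ratio of -0.10 against -0.08 for all features, of which 7.77% were higher and 13.6% lower. Bcl7c and Bcl11a were picked out after their values were seen, and Bcl7c lay at the limit, at a ratio of 0.665.

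**Figure D2:**
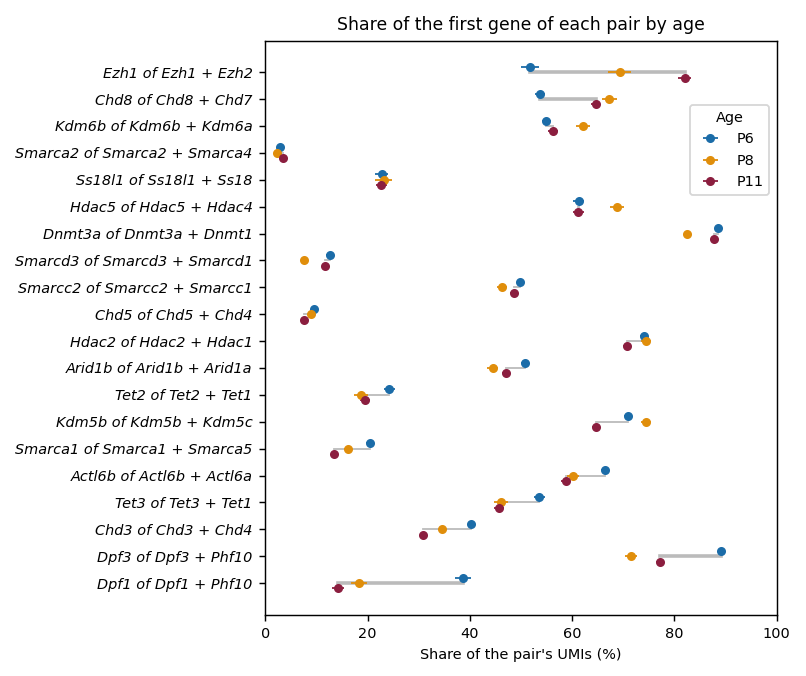
Share of the first gene in the summed UMIs of each of 20 pairs of related subunits or enzymes, in percent, with Clopper-Pearson 95% intervals and 1 library per age. Lines join P6 and P11, and thick lines mark the 4 pairs whose share moved by at least 10 points, namely Ezh1 with Ezh2, Chd8 with Chd7, Dpf3 with Phf10 and Dpf1 with Phf10.

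ISWI remodellers space nucleosomes, and their ATPases are Smarca5 and Smarca1. Smarca1 (X-linked) was lower on each later day, with 30.3 CPM on P6 (29.2 to 31.6), 22.1 on P8 (20.9 to 23.3) and 16.2 on P11 (15.4 to 16.9), and the intervals did not overlap. P11 was 0.532 of P6 (0.50002 to 0.567). Smarca5 stood at 117.9, 113.9 and 103.2 CPM, a ratio of 0.876 that TMM scaling raised to the level of 1. Smarca1 made up 20.5%, 16.2% and 13.5% of the pair. In cells with Y-linked UMIs and no Xist UMI, Smarca1 showed the same order, with 30.5, 22.2 and 15.8 CPM.

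Among the chromodomain helicases, 2 of 10 genes were lower on P11 than on P6, where 13.6% of features were, and 0 were higher. Chd5 was called lower too in cells of 10000 to 20000 UMIs, where 16.2% of features were. Chd3, Chd4 and Chd5 are the alternative ATPases of NuRD, a complex that joins remodelling to histone deacetylation. Chd3 stood at 228.7 CPM on P6, 153.8 on P8 and 141.6 on P11, a P11 to P6 ratio of 0.619 (0.606 to 0.633). Chd4 had 339, 292 and 317 CPM and Chd5 35.6, 28.95 and 25.9 CPM. Chd3 made up 40.3% of its UMIs with Chd4 on P6, 34.5% on P8 and 30.9% on P11, a difference of -9.43 points that came just short of the 10-point limit. Chd7, mutated in human CHARGE syndrome, was lowest on P8, with 54.4, 23.0 and 33.8 CPM. Its relative Chd8, linked to autism in humans, had 63.1, 47.4 and 61.8 CPM. The share of Chd8 in that pair was 53.7% on P6, 67.3% on P8 and 64.6% on P11, a gain of 10.9 points from P6 to P11. Chd7 spans 177.3 kb and Chd8 59.6 kb, and the part of span in this share was not tested. Under TMM scaling, Chd3 and Chd7 no longer lay 1.5-fold below P6.

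None of the 11 histone deacetylases lay 1.5-fold apart between P11 and P6 in CPM, where 7.77% of features were higher and 13.6% lower. In cells of 10000 to 20000 UMIs Hdac7 alone of them was called, as lower, where 16.2% of features were. Hdac2, a class I enzyme of NuRD and CoREST, was the lowest, with 124 CPM on P6, 93.4 on P8 and 84.3 on P11 and a ratio of 0.680 (0.661 to 0.700). Hdac1, with which it pairs in those complexes, had 43.3, 31.9 and 34.8 CPM. Hdac11, the class IV enzyme, was the highest, at 35.2, 35.2 and 49.8 CPM, a ratio of 1.41 that passed 1.5-fold under TMM scaling. On P8, 4 of the 11 genes were lower than on P6, where 22.9% of features were. They were Hdac8 and 3 of the class IIa enzymes, which shuttle between nucleus and cytoplasm, namely Hdac9, Hdac7 and Hdac4. Hdac9 stood at 275 CPM on P6, 110.3 on P8 and 222 on P11, and its P8 level was 0.402 of that on P6 (0.391 to 0.413), the lowest such ratio of the 79 genes. Hdac7 (13.4, 5.50 and 9.35 CPM) and Hdac4 (36.2, 19.7 and 29.8 CPM) had the same order, while Hdac5 (57.3, 43.5 and 47.1 CPM) stayed within the limit. Hdac8, a class I enzyme that acts on cohesin, had 58.5, 27.7 and 48.0 CPM. Hdac9, Hdac4 and Hdac8 span 869.5, 266.9 and 220.7 kb, and Hdac7 spans 51.8 kb. Among the longest measured features, 58.2% were lower on P8 than on P6, and the part of span in these levels was not tested.

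Among 16 genes with Kmt or Setd symbols, not all of them writers of histone methylation, 2 were higher and 1 lower on P11 than on P6. Over all features 7.77% and 13.6% were. Setd7, which methylates histone H3 and several other proteins, stood at 35.8 CPM on P6 (34.5 to 37.1), 31.9 on P8 (30.5 to 33.4) and 64.8 on P11 (63.2 to 66.4). The P11 level was 1.81-fold that on P6 (1.73 to 1.89), and the difference lay between P8 and P11. Setd4 likewise climbed with age, at 21.9, 29.7 and 33.3 CPM, and its ratio of 1.52 lay at the limit and did not pass it as a mean over cells. Setd3, which methylates a histidine of actin, had 126.2, 128.8 and 152.5 CPM. Setd5, linked to intellectual disability in humans, stood at 87.0, 46.8 and 56.0 CPM, a P11 to P6 ratio of 0.643 (0.621 to 0.666) that TMM scaling brought within 1.5-fold. The MLL family, which methylates histone H3 at active promoters and enhancers, was lower on P11 without passing the limit over all horizontal cells. Its P11 to P6 ratios were 0.696 for Kmt2a, 0.691 for Kmt2b, 0.712 for Kmt2c and 0.744 for Kmt2d. In cells of 10000 to 20000 UMIs, Kmt2a, Kmt2b and Kmt2c passed the limit, where 16.2% of features were lower. Kmt2d did so in cells thinned to 3000 UMIs, where 14.0% were. None of the 10 partner genes of the MLL and SET1 complexes passed 1.5-fold between P11 and P6, where their median log2 ratio was -0.06.

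Of 14 measured demethylases, Kdm2b alone was called between P11 and P6, where 7.77% of features were higher and 13.6% lower. In cells of 10000 to 20000 UMIs, Kdm3b, Kdm4c and Kdm6a were called lower too, where 16.2% of features were. Kdm2b binds CpG islands and brings a Polycomb complex to them. It stood at 59.6 CPM on P6 (58.0 to 61.3), 27.1 on P8 (25.9 to 28.5) and 32.7 on P11 (31.6 to 33.8), a P11 to P6 ratio of 0.548 (0.524 to 0.572). Kdm1a, or LSD1, the demethylase of CoREST, had 154.1, 150.6 and 117.3 CPM, so that its P6 and P8 levels were close and P11 was lower, at a ratio of 0.761. Kdm4a and Kdm4b, which remove repressive methylation from histone H3, had P11 to P6 ratios of 1.13 and 1.15. Kdm6b, which opposes the Polycomb mark, stood at 81.7, 47.5 and 60.3 CPM.

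Enzymes of DNA methylation stayed within 1.5-fold between P11 and P6, where 7.77% of features were higher and 13.6% lower. In cells of 10000 to 20000 UMIs, Tet2 and Tet3 were called lower, where 16.2% of features were. Dnmt3a, which places new methylation, had 314 CPM on P6, 208 on P8 and 258.9 on P11, and Dnmt1, which copies methylation after replication, 40.9, 44.0 and 36.2 CPM. Dnmt3a made up 88.5%, 82.5% and 87.7% of this pair. Of the enzymes that oxidise methylcytosine, Tet1 had 53.8, 44.1 and 53.0 CPM, Tet2 17.2, 10.1 and 12.8 CPM and Tet3 62.2, 37.7 and 44.7 CPM. Tet3 made up 53.6%, 46.1% and 45.8% of its UMIs with Tet1, a difference of -7.85 points between P11 and P6 that reached -10.8 when every cell was thinned to 3000 UMIs.

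The P8 library held the lowest level of 53 of the 79 genes (67.1%), against 47.9% of all measured features. On P8, 1 gene (Smarca4) was at least 1.5-fold higher than on P6, where 7.5% of features were, and 27 were lower (34.2%), where 22.9% of features were. The median log2 ratio was -0.44 for the chromatin genes and -0.18 for all features. The 27 lower genes were 4 of 11 Hdac genes, 7 of 14 Kdm genes, 6 of 16 Kmt and Setd genes, 3 of 10 Chd genes, 2 of 8 Arid genes, 3 of 5 Dnmt and Tet genes, Ezh2, and 1 of 13 Smarc genes (Smarcd3). The Smarc genes had a median of -0.05, above that of each other class. TMM scaling gave 14 lower genes, where 12.2% of features were, and median-of-ratios scaling 8, where 11.1% were. Of the features called either way, 24.7% were higher in CPM, 59.6% with TMM and 64.3% with median-of-ratios.

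On P11, 9 genes were at least 1.5-fold higher than on P8, where 10.7% of features were, and 0 were lower, where 4.73% of features were. The 9 were Setd7, Hdac9, Hdac8, Hdac7, Smarca2, Kdm7a, Kdm6a, Smarcd2 and Hdac4. Setd7 was 2.03-fold higher (1.93 to 2.13) and Hdac9 2.01-fold (1.96 to 2.07). The median log2 ratio was 0.26 for the chromatin genes and 0.11 for all features. With either scaling Ezh2 became 1.5-fold lower on P11 than on P8, since its ratio was 0.698 (0.621 to 0.785) before scaling. Genes that lie outside the rule for named genes, such as Hdac9, Hdac7, Hdac8, Kdm7a, Smarcb1 and Kmt2a, were picked for their role or after their values were seen. Over the whole series of ages, 16 of the 79 genes (20.3%, against 15.7% of features) were lower on each later day and 6 (7.59%, against 12.5%) were higher at each.

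**Figure D3:**
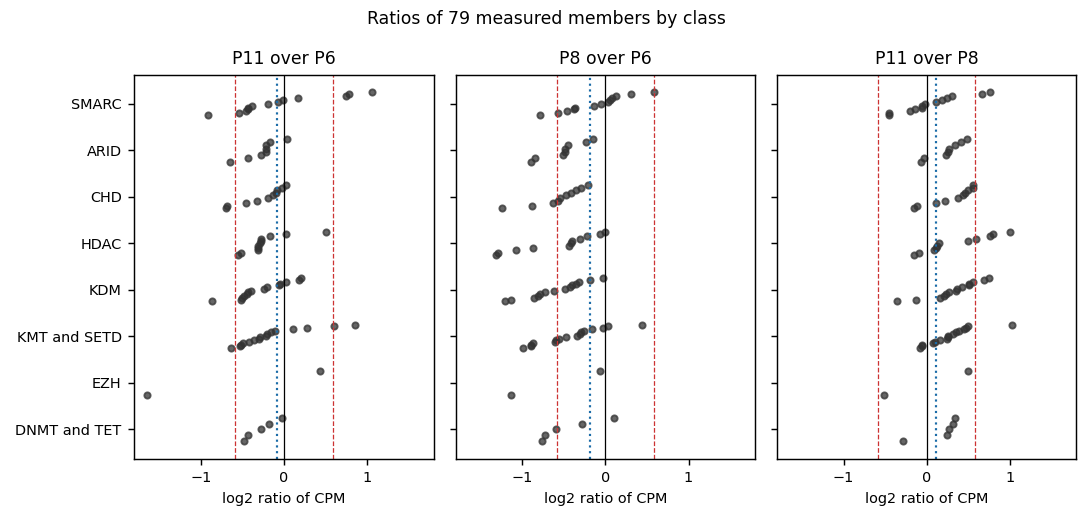
Log2 ratio of CPM for each of the 79 measured genes, in rows by class, for P11 over P6, P8 over P6 and P11 over P8, where each point is 1 gene. Dashed red lines mark 1.5-fold and the dotted blue line the median of all 10051 measured features, and the points for P8 over P6 lie mostly left of that line except in the Smarc row.

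The low P8 levels went with the span of the gene. The chromatin genes were long, with a median span from start to end of 59.6 kb, against 26.7 kb for all measured features. When the features were split into 5 equal groups by span, the P8 to P6 ratio had a median log2 value of 0.20 in the shortest group and -0.71 in the longest. In that longest group, of median span 144.7 kb, the 26 chromatin genes had a median of -0.61, and 15 of them (57.7%) were lower, against 58.2% of the features. In the next group 9 of 28 chromatin genes (32.1%) were lower, against 26.6% of features. Hdac9 spans 869.5 kb and Kmt2c 227 kb, while Smarcb1 and Smarce1, which were not lower, span 24.9 kb and 21.97 kb. Other genes did not follow their span. Smarca2 (173.3 kb) was 1.23-fold and Smarca4 (88.1 kb) 1.51-fold higher on P8 than on P6, and the short Kdm6b (15.2 kb) was at 0.581 of its P6 level. For P11 over P6 the longest group had medians of -0.28 for the chromatin genes and -0.29 for the features. In each shorter group the chromatin genes lay below the features. From the shortest group up, their P11 over P6 medians were -0.11, -0.24, -0.28 and -0.22, against 0.04, -0.01, -0.06 and -0.12. For P8 over P6 they were -0.07, -0.11, -0.40 and -0.41, against 0.20, -0.02, -0.16 and -0.31. Those groups held 3, 6, 16 and 28 chromatin genes. Malat1, a nuclear RNA, stood at 20337 CPM on P6, 15319 on P8 and 21409 on P11, and so was also lowest on P8. The part of nuclear RNA in these differences was not tested, and whether intron reads were counted is not given in the sources used here.

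**Figure D4:**
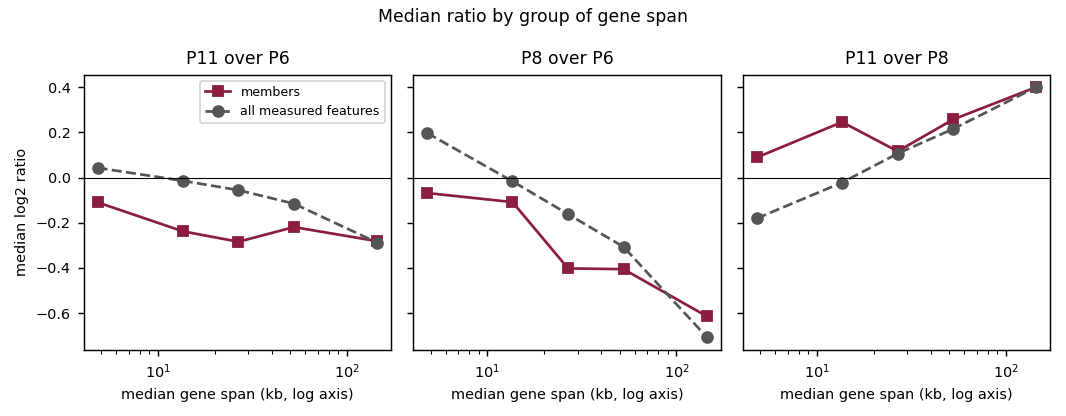
Median log2 ratio of CPM by group of gene span, with the median span of each of 5 groups in kb on a log axis, for the chromatin genes (squares) and all measured features (circles). In the middle panel both lines fall with span, to -0.61 and -0.71 in the longest group, and in the right panel both rise to 0.40.

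The libraries also differed in the sex of their cells, which bears on the X-linked members. Xist, the RNA that silences one X chromosome in female cells, stood at 569 CPM on P6, 0 UMIs on P8 (a limit of 3 counts is 0.0480 CPM) and 310 CPM on P11, and the Y-linked Ddx3y at 31.8, 90.3 and 69.7 CPM. Cells with Xist and no UMI of the Y-linked genes Ddx3y, Eif2s3y and Uty numbered 4491 on P6 (62.9%), 0 on P8 and 1534 on P11 (32.2%). Cells with a Y-linked UMI and no Xist numbered 1901, 2954 and 2909, and 377 cells on P6 and 241 on P11 held both kinds. This split was made after seeing the data.

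Kdm6a, the X-linked demethylase UTX, is known to escape X inactivation in mice, as is Kdm5c, which removes the active methyl mark of histone H3. On P6 Kdm6a stood at 75.5 CPM in Xist cells (73.1 to 77.9) and 49.2 CPM in Y-marked cells (46.4 to 52.2), and on P11 at 60.4 CPM (57.8 to 63.2) and 39.3 CPM (37.8 to 40.9). The Xist cells were 1.53-fold (1.43 to 1.64) and 1.54-fold (1.45 to 1.63) higher, and the intervals did not overlap in either library. Kdm6a was the 1 gene of 79 at or past 1.5-fold in each library, where 0.149% of all features were, and 0 genes were 1.5-fold lower, where 0.0696% of features were. Kdm5c stood at 46.5 CPM in Xist cells and 40.9 in Y-marked cells on P6, and at 47.5 and 40.9 CPM on P11, ratios of 1.14 (1.05 to 1.23) and 1.16 (1.09 to 1.24). Smarca1, Hdac6 and Hdac8, also X-linked, had ratios whose intervals included 1 in both libraries. The cells of a library share its preparation and an unknown number of animals, so these intervals too cover counting error only.

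The age differences of both genes changed when the sexes were held apart. Over all horizontal cells Kdm6a stood at 67.0 CPM on P6, 28.98 on P8 and 46.8 on P11, and its P8 to P6 ratio was 0.433. In Y-marked cells the levels were 49.2, 29.5 and 39.3 CPM and that ratio was 0.598, still lower by more than 1.5-fold, while the P11 to P8 ratio was 1.34, within the limit, and 1.62 over all cells. Kdm5c, at 45.0, 29.4 and 43.1 CPM over all cells, had a P8 to P6 ratio of 0.653 that passed the limit, and in Y-marked cells of 0.720 that did not. Within those cells Kdm5c had 40.9 CPM on P6, 29.4 on P8 and 40.9 on P11. The P11 over P6 call counts were similar in Y-marked cells, with 5 genes higher and 6 lower, where 7.66% and 12.9% of features were.

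**Figure D5:**
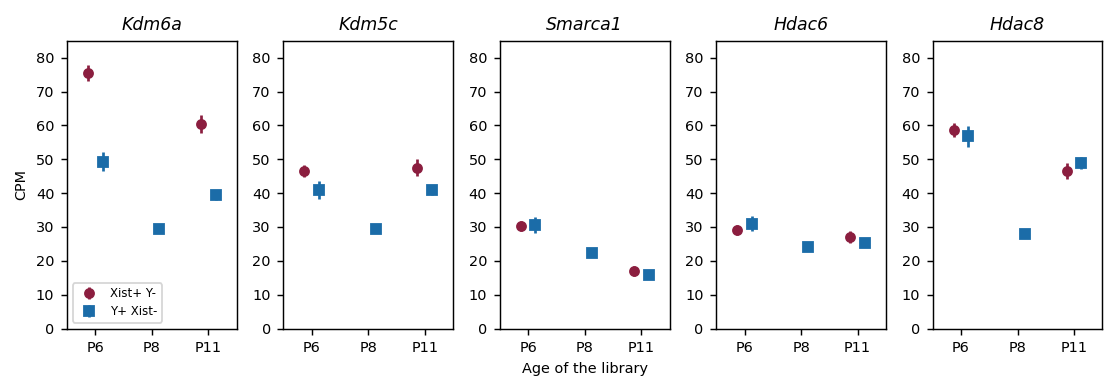
Level in CPM of the 5 X-linked members in cells with Xist and no Y-linked UMI (circles) and cells with a Y-linked UMI and no Xist (squares) by age of the library, with exact Poisson 95% intervals. The P8 library held no cell of the first kind, and the circles stand clear of the squares for Kdm6a on P6 and P11.

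Genes outside the symbol rule, namely partners in these complexes, related enzymes and readers of marks, numbered 89 in 8 lists, of which 83 were measured. Between P11 and P6, 3 were higher (3.61%, against 7.77% of features) and 8 lower (9.64%, against 13.6%), with a median log2 ratio of -0.10. Between P8 and P6, 1 was higher (1.205%, against 7.5%) and 15 lower (18.1%, against 22.9%), with a median of -0.22. In the Polycomb list 1 of 8 measured partners was called, the accessory subunit Mtf2, which stood at 46.4 CPM on P6, 25.5 on P8 and 28.4 on P11. The core partners Eed and Suz12 differed less between P6 and P11 than Ezh2. Eed was lower on P11 within the limit, at 17.4, 12.2 and 12.8 CPM and a ratio of 0.734 (0.681 to 0.791). Suz12 stood at 71.9, 72.8 and 76.6 CPM, a ratio of 1.06 (1.03 to 1.10). In the NuRD and CoREST list, the CoREST reader Phf21a was lower, with 111.6, 45.0 and 71.2 CPM. Ehmt1, which places the repressive mark of silent euchromatin, was the 1 called gene of 6 measured in its list, at 77.0, 43.6 and 49.4 CPM. Of 7 sirtuins, the mitochondrial deacetylase Sirt3 was higher, at 42.9, 62.9 and 67.9 CPM, and the nuclear Sirt6 lower, at 9.65, 4.35 and 3.95 CPM. None of 10 histone acetyltransferases and none of 8 measured readers of methylated DNA or other marks passed 1.5-fold between P11 and P6, where their median log2 ratios were 0.01 and -0.16.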

How the data were processed

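Per the labels' protocols, retinas were dissociated with papain and sorted, and libraries were made with 10x Genomics 3' chemistry. The authors deposited raw UMI counts, for which the submitters' processing notes name Cell Ranger 7.1.0 and mm10. Its annotation release and intron setting: not given in the sources used here. Counts were summed over the horizontal cells of each library and scaled to 1000000 UMIs (CPM). Levels carry Poisson (exact) 95% intervals, pair shares Clopper-Pearson intervals and ratios conditional binomial ones. With 1 library per age there is no test. A 0 entered ratios over all features as 3 counts. Gene positions and spans come from GENCODE vM21. The ratio step was tested on simulated data. Scrublet (scanpy 1.11.5) marked 0, 8 and 0 barcodes at its own threshold, so doublets were kept, and removing the top scores by loading rate (512, 165 and 230 barcodes) was an alternative. Others were TMM (edgeR 4.0.16) and median-of-ratios scaling, level and fold limits, cell filters, and thinning to 3000 UMIs. Named genes were those with the 10 highest and 10 lowest ratios of P11 over P6, all genes of the 20 pairs, and up to 2 partners per list farthest past 1.5-fold each way. The members, lists and pairs were chosen with earlier results of these data known. A gene that the naming rule picks is not reported here.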

Additional observations from a re-analysis of the deposited data

How the results depend on the processing

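No paired analysis was possible because each age had 1 library, and for the same reason no library could be left out. The number of pairs whose share moved by 10 points was 4 under each alternative set of cells except cells thinned to 3000 UMIs, where Tet3 with Tet1 made it 5, and scaling does not change a share. Of the values for single genes and pairs, 506 stayed within the counting interval and 202 moved past it. Of 68 such results, 14 changed sign under an alternative, all of them short of the 1.5-fold or 10-point limit, among them the log2 ratio of Chd4 (-0.10, highest 0.10) and the share of Kdm6b with Kdm6a (1.37 points, lowest -2.72). Percentages in brackets are the shares of all features called in the same way. Genes lower on P11 than on P6 numbered 7 (13.6%), and 3 under TMM (8.36%) or median-of-ratios scaling (8.39%). They numbered 12 of 87 with no level minimum (30.03%) and 1 at a fold limit of 2 (5.54%), where the higher genes also numbered 1 (2.62%). In cells of 10000 to 20000 UMIs they numbered 17 of 79 (16.2%), so there the lower share lay above the background. Genes higher on P8 than on P6 numbered 1 (7.5%), and 2 under TMM (18.03%) and 3 under median-of-ratios (20.01%). The 1 gene was Smarca4, replaced by Setd4 in cells thinned to 3000 UMIs (7.08%). Such genes numbered 0 at a fold limit of 2 (1.73%), with at least 2000 detected genes (7.32%) or in Y-marked cells (7.11%). Genes lower on P8 than on P6 numbered 27 (22.9%), and 14 under TMM (12.2%), 8 under median-of-ratios (11.1%) and 7 at a fold limit of 2 (8.94%). Genes higher on P11 than on P8 numbered 9 (10.7%), and 14 with no level minimum (19.3%) and 2 at a fold limit of 2 (2.07%). Genes lower on P11 than on P8 numbered 0 (4.73%), and 1 under TMM (6.94%), median-of-ratios scaling (8.30%) and in Y-marked cells (5.11%). They numbered 2 with no level minimum (14.4%) and 2 in cells thinned to 3000 UMIs (5.15%). Scaling and fold limits act by construction, and for the other alternatives the cause was not tested. The median depth on P6 was 12161 UMIs per cell, against 20671 on P8 and 22106 on P11, and Arid3b (259 UMIs) and Sirt6 (272 UMIs) rest on few UMIs in the P8 sum.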
